A study of Rattus norvegicus with 2 samples.

Results

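The proteasome genes were taken by symbol: every gene of the probe annotation whose symbol begins with Psm, a letter from a to g and a number. The rule found 46 genes among 15037 named genes on the array, each with 1 probe set. They were sorted by role into the alpha ring (7 genes) and beta ring (7) of the core particle, the catalytic subunits of the immunoproteasome (3), a testis form of the core (1), the ATPases (6) and other subunits (3) of the base, the lid (7), activators and an inhibitor (5) and assembly chaperones (5). The remaining 2, Psmc3ip and Psme3ip1, match by symbol but encode interacting proteins and no subunit. The lid subunit gene Psmd11, the thymic core gene Psmb11 and the chaperone genes Psmg1 and Psmg3 had no named probe set and were not analysed here.

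Newborn rat keratinocytes, which build the epidermis, were cultured with serum and hydrocortisone. The siTet2/3 culture was transfected with siRNAs against Tet2 and Tet3 at 1 µM each; these genes encode dioxygenases that oxidise methylcytosine in DNA with vitamin C as a cofactor. The control culture is titled NC+VC, carries the genotype label control and is described as non-treated. The labels do not say whether it was transfected, with another siRNA or with reagent alone. For both cultures, the control included, the labels give vitamin C from 24 h after transfection and for 12 h. Each group had 1 array, and the number of animals behind a culture is not given in the labels. No difference below therefore has a replicate check, no test was possible, and "higher" and "lower" describe these 2 arrays.

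The proteasome is the protease that breaks down proteins tagged with ubiquitin. Its barrel-shaped core is built of alpha rings, which form the gate, and beta rings, some of whose subunits cut peptide bonds. A regulatory particle sits on the gate: ATPases of its base unfold the substrate, and its lid removes the ubiquitin chain. In cells exposed to interferon gamma, replacement catalytic subunits form the immunoproteasome, which shapes the peptides shown on MHC class I. Subunit genes are largely transcribed together, and the transcription factors NRF1 and NRF2 raise them when protease capacity falls short. Keratinocytes rely on the proteasome for the turnover of cell cycle and differentiation regulators.

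Values are deposited signals, taken as log2 from the submitters' processing notes. They reach 19.93, which is high for log2 array signals, and every fold below holds only if that scale is right. The background floor was 5.04 log2 units, the 95th percentile of 1206 chemoreceptor genes, and 8103 named genes passed it on at least 1 array. A stricter floor of 8.31 came from 1153 negative-control probes. Keratinocyte markers fitted the label: 7 of 7 with a named probe set passed the floor, from Krt1 at 7.07 and 6.63 to Krt14, the basal keratin, at 18.54 and 18.70 (control and siTet2/3). Fibroblast markers passed the floor in 0 of 8 and melanocyte markers in 1 of 6 (Mitf). Immune markers passed in 1 of 8 (Cd68) and endothelial markers in 1 of 6 (Tek). Tek read 9.66 and 9.25, above the stricter floor. Mitf, at 5.33 and 5.41, and Cd68, at 5.52 and 5.24, lay near the background floor. The Tet genes had no named probe set, so the size of the knockdown was not analysed here.

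Of the 46 proteasome genes, 41 passed the floor, all 41 on both arrays, and 36 of them differed by less than 1.5-fold. Those at least 1.5-fold lower on the siTet2/3 array were Psmb6, Psmd8 and Psmd10, or 3 of 41 (7.32%), where 13.2% of all named genes that passed the floor were lower by as much. Those at least 1.5-fold higher were Psma7 and Psmc3ip, or 2 of 41 (4.88%), beside 8.63% of all genes. Some of those genes passed the floor on 1 array only; among the 7504 that passed on both arrays, as all 41 members did, 12.0% were lower and 6.82% higher. Above the stricter floor the lower genes were 2 of 38 against 11.0% of 4124 genes, and the higher genes 1 of 38 against 6.01%. No member was past 2-fold in either direction, where 3.05% of all genes were lower and 1.81% higher. The largest proteasome difference, that of Psmd10, was 1.96-fold. In these bulk cultures, fewer cells of a type and less RNA per cell cannot be told apart.

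**Figure D1:**
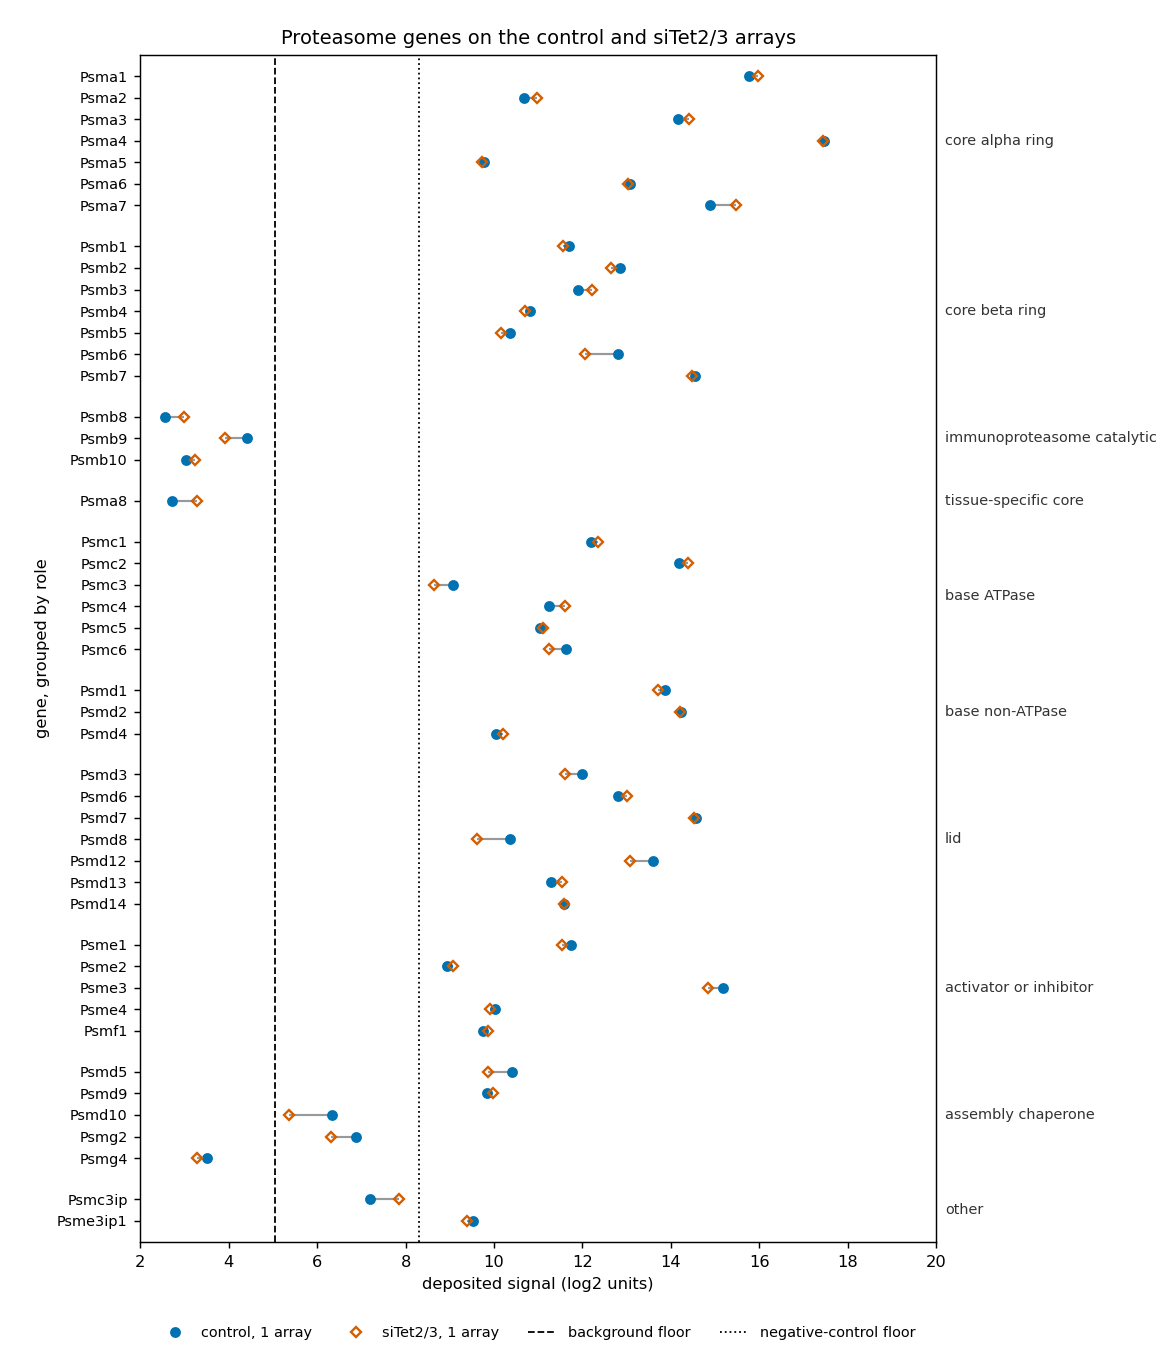
Deposited signal (log2 units) of each of the 46 proteasome genes on the control array (filled circles) and the siTet2/3 array (open diamonds), grouped by role, with the background floor (5.04, dashed) and the negative-control floor (8.31, dotted). The pairs of points mostly overlap or nearly so, and the 3 immunoproteasome genes, Psma8 and Psmg4 lie left of the dashed line on both arrays.

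The median difference (siTet2/3 minus control) over the 41 genes was -0.05 log2 units, beside -0.05 over all genes above the floor. The quartiles of the proteasome genes were -0.21 and 0.17, and those of all genes -0.36 and 0.24. A difference smaller than 1.2-fold was found in 26 of 41 proteasome genes (63.4%) and in 44.3% of all genes, or 46.9% of those above the floor on both arrays. Proteasome genes are brighter than most, with a median level of 11.58 against 8.20 log2 units, and scatter differed with level: the robust SD of the difference was 0.31 among genes at the level of Psma7 and 0.56 at that of Psmd10. Among genes above the stricter floor, the shares within 1.2-fold were 68.4% of the proteasome genes and 49.1% of all genes. Above that floor the proteasome genes were still brighter, with a median level of 11.64 against 10.27 log2 units, so it did not match the genes by level. The closeness of the arrays over this module was seen with both floors. Above the floor on both arrays, lists of genes that work with the proteasome, given below, ranged from 18.8% to 100% within 1.2-fold. The ends were 16 partners and 3 ubiquitin-activating enzyme genes, and 22 ubiquitin-conjugating enzyme genes stood at 59.1%. Keratinocyte markers stood at 71.4% of 7, so closeness of this size was not confined to proteasome genes. Neither the closeness of the module nor the part of signal level in it was tested.

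**Figure D2:**
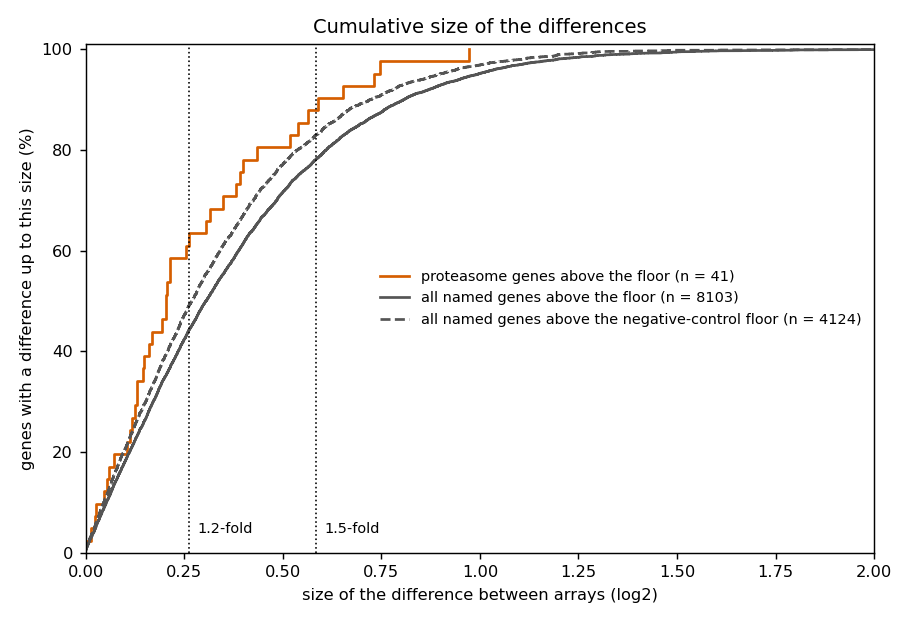
Share of genes (%) whose difference between the arrays, in log2 units, is no larger than the value on the horizontal axis, for the 41 proteasome genes above the floor, all 8103 genes above the floor and the 4124 genes above the negative-control floor. At 1.2-fold the proteasome line stands at 63.4% and the line of all genes at 44.3%.

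In the alpha ring 4 of 7 genes were above 0, beside 3611 of all 8103 genes above the floor, and 1 of 7 passed 1.5-fold. Psma7 gave 14.88 log2 units in the control and 15.47 after siTet2/3, a difference of 0.59 or 1.51-fold, just inside the limit of 1.5-fold. Of the 142 other genes within 0.5 log2 unit of its mean level, 4.93% were at least 1.5-fold higher. Psma2 read 10.68 and 10.98, Psma3 14.16 and 14.42, and Psma1 15.77 and 15.98, which are smaller differences of the same sign. Psma4, Psma5 and Psma6 were within 0.05 log2 units of 0, so that 4 subunits lay between 0.21 and 0.59 and 3 lay close to 0. Psma4, the lowest in absolute difference of all constitutive subunits, read 17.46 and 17.45. The median of the 7 was 0.21, beside -0.05 over all genes above the floor. It lay inside the quartiles of all genes, but those describe single genes and are no gauge for a median of 7. Psma8, which takes the place of Psma7 in the testis, stayed below the floor at 2.72 and 3.28.

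In the beta ring 6 of 7 genes were below 0, beside 4458 of all 8103 genes, and 1 of 7 passed 1.5-fold. The median was -0.13, beside -0.05 over all genes above the floor, and inside the quartiles of all genes, which again describe single genes. Psmb6, the caspase-like catalytic subunit, read 12.80 in the control and 12.07 after siTet2/3, 1.66-fold lower. At its level, 9.19% of 370 other genes were at least 1.5-fold lower. The other catalytic subunits of the constitutive core differed less: Psmb5, with chymotrypsin-like activity, read 10.37 and 10.16, and Psmb7, with trypsin-like activity, 14.55 and 14.48. The structural subunit Psmb2 read 12.85 and 12.65, Psmb1 11.70 and 11.57, and Psmb4 10.81 and 10.69. Psmb3 was the exception of the ring at 11.90 and 12.22, a difference of 0.32. The differences of the alpha ring (-0.05 to 0.59) and beta ring (-0.73 to 0.32) overlapped through Psmb3 alone. Below 0 lay 3 alpha genes and 6 beta genes, and those alpha genes were all nearer 0 than the beta genes. The contrast between the rings was not tested.

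The immunoproteasome subunits did not reach the floor on either array. Psmb9, which replaces Psmb6, read 4.41 in the control and 3.92 after siTet2/3. Psmb8, which replaces Psmb5, read 2.55 and 2.99, and Psmb10, which replaces Psmb7, 3.04 and 3.25. These are background values, and no fold is given for them. The lower Psmb6 signal was thus accompanied by no Psmb9 signal above background.

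**Figure D3:**
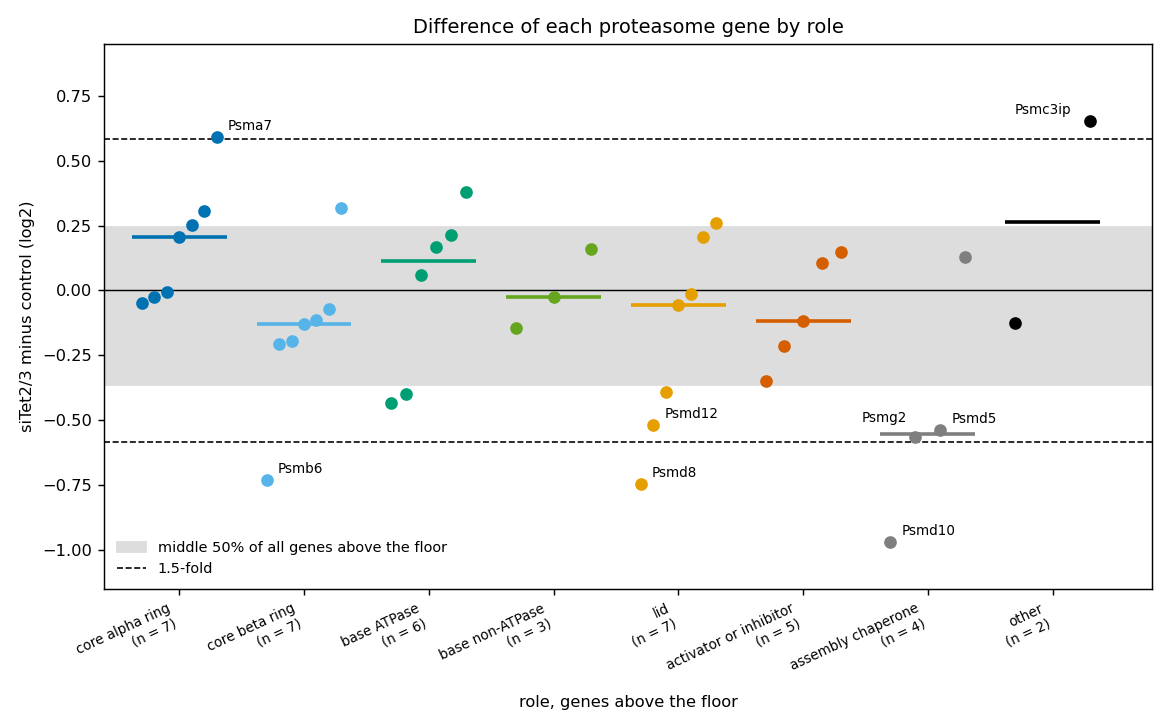
Difference of each proteasome gene above the floor (siTet2/3 minus control, log2), by role, with a bar at each role's median, dashed lines at 1.5-fold and a grey band for the middle 50% of all genes above the floor (-0.36 to 0.24). The alpha ring median lies at 0.21 and that of the assembly chaperones at -0.55; the 5 genes outside the dashed lines are Psma7, Psmc3ip, Psmb6, Psmd8 and Psmd10.

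Base ATPases, which thread the substrate into the core, lay on both sides of 0, and 0 of 6 passed 1.5-fold. Psmc4 was highest, with 11.24 on the control and 11.62 on the siTet2/3 array, and Psmc3 lowest, with 9.08 and 8.65. Psmc6 lay near Psmc3 in difference, at 11.64 and 11.24. Psmc2 (0.21), Psmc1 (0.17) and Psmc5 (0.06) were slightly above 0. The median of 0.11 came from 4 genes above and 2 below 0, and the mean was -0.0021. The non-ATPase subunits of the base differed by at most 0.16 log2 units in size: the scaffold subunit Psmd2 read 14.22 and 14.20, the scaffold subunit Psmd1 13.86 and 13.72, and the ubiquitin receptor Psmd4 10.05 and 10.21.

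The lid had the second gene past the lower limit. Psmd8 read 10.36 in the control and 9.62 after siTet2/3, 1.68-fold lower, and 12.0% of 794 other genes at its level were at least 1.5-fold lower. Psmd12 was just outside the limit at 13.60 and 13.08, or 1.43-fold lower, and Psmd3 followed at 12.00 and 11.61. The catalytic deubiquitinase of the lid, Psmd14, read 11.59 and 11.58, and its partner Psmd7 14.58 and 14.52. Psmd13 (0.26) and Psmd6 (0.21) were above 0. Members of 1 subcomplex therefore spanned from -0.75 to 0.26 log2 units, with a median of -0.06 and a mean of -0.18.

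Activators and the inhibitor all lay within 1.5-fold. The interferon-inducible activator subunits Psme1 and Psme2, which assemble into 1 ring, read 11.75 and 11.53, and 8.94 and 9.08. Both were above the stricter floor on both arrays, while the immunoproteasome subunits, each with 1 probe set, gave background signals. Whether those probe sets respond to their transcripts was not tested. Psme3, which forms the nuclear activator, had the largest difference of the group, with 15.18 on the control and 14.83 on the siTet2/3 array. Psme4, which encodes a large single-chain activator, read 10.02 and 9.90. Psmf1, the proteasome inhibitor gene, read 9.75 and 9.86. Their median was -0.12.

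Assembly chaperones had the lowest median of any role, -0.55 over the 4 genes above the floor. Psmd10, also known as gankyrin, which holds an ATPase during base assembly, read 6.34 in the control and 5.37 after siTet2/3, 1.96-fold lower. Signals this dim scatter more: of 1191 other genes at its level, 17.5% were at least 1.5-fold lower. Psmg2, which acts in alpha ring assembly, was just outside the limit at 6.87 and 6.31, or 1.48-fold lower. Psmd5, another base chaperone, read 10.40 and 9.86, 1.45-fold lower, and Psmd9, the remaining base chaperone, 9.85 and 9.98. Only Psmd5 (-0.54) and Psmd9 (0.13) passed the stricter floor, and their median was -0.20. Psmd5 was about as low as the dim Psmg2 (-0.56), and a median of 2 genes cannot show the part of dimness. That part was not tested. Psmg4 was below the floor at 3.50 and 3.28.

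The 2 genes matched by symbol alone were Psmc3ip and Psme3ip1. Psmc3ip, which encodes a partner of the meiotic recombinases, read 7.19 on the control and 7.85 on the siTet2/3 array, 1.57-fold higher. At its level, 6.84% of 1140 other genes were at least 1.5-fold higher. Psme3ip1, whose product binds the nuclear activator, read 9.52 and 9.40. Without these genes the subunits, activators and chaperones counted 1 higher and 3 lower among 39.

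**Figure D4:**
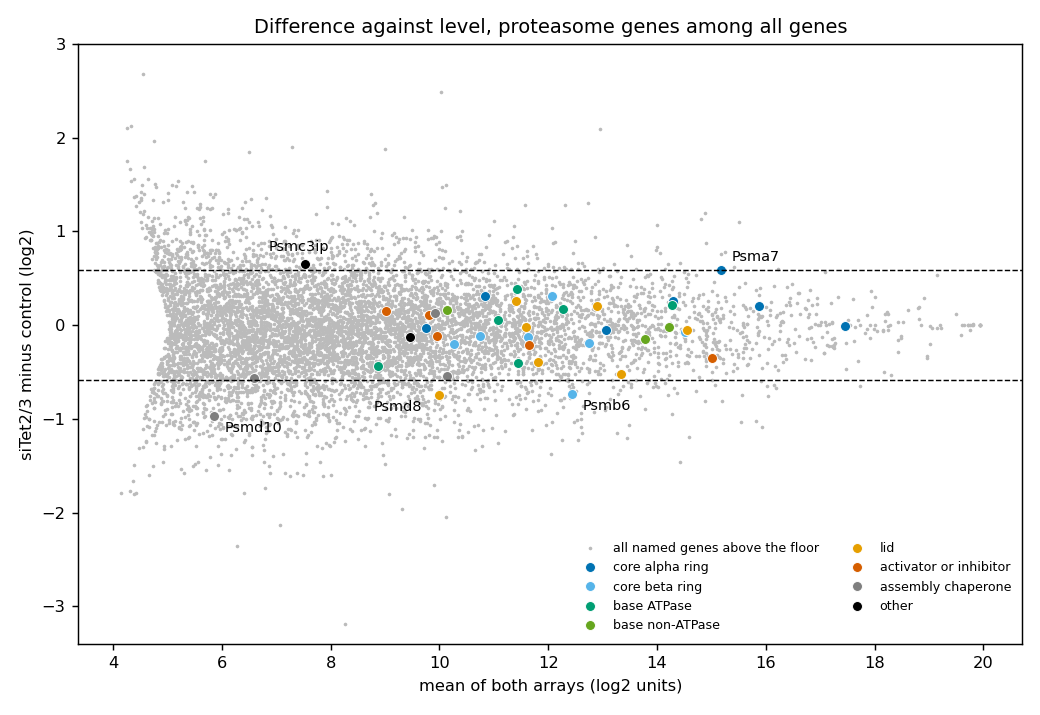
Difference (siTet2/3 minus control, log2) against the mean of both arrays (log2 units) for all 8103 named genes above the floor (grey) and the 41 proteasome genes (coloured by role), with dashed lines at 1.5-fold. Most proteasome genes sit between the lines at mean levels above 8.31, and Psmd10 sits at the dim end at a mean of 5.86.

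Genes that work with the proteasome were taken from lists by role. A named probe set was found for 16 of 25 listed partners and 3 of 8 genes for ubiquitin and its activating enzymes. It was found for 25 of 33 ubiquitin-conjugating enzyme genes, 10 of 14 MHC class I genes and 13 of 15 interferon signalling genes. In the first 3 lists every gene above the floor passed on both arrays, so calls stand against 12.0% lower and 6.82% higher. Among the 16 partners that passed the floor, 2 were lower and 2 higher by 1.5-fold or more, with a median of -0.18. Nploc4, a cofactor of the segregase that extracts ubiquitylated proteins, read 14.05 and 12.85, 2.30-fold lower. Akirin2, which carries proteasomes into the nucleus, read 13.05 and 12.45, 1.52-fold lower. Ubqln2, a shuttle that brings ubiquitylated proteins to the proteasome, read 10.45 and 11.56, 2.16-fold higher. Txnl1, a thioredoxin-like protein bound to the regulatory particle, read 12.35 and 12.98, 1.54-fold higher. The transcription factor gene Nfe2l2, which encodes NRF2, read 12.05 and 11.58, and the core maturation factor Pomp 12.95 and 12.59. The gene for NRF1 was not among the 16 partners. The ubiquitin receptor Adrm1 (-0.33), the small lid subunit Sem1 (-0.32) and the proteasome-bound deubiquitinase Usp14 (0.44) were also within 1.5-fold.

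Of the 3 genes for enzymes that activate ubiquitin or its relatives, 0 passed 1.5-fold, and Uba3, part of the NEDD8-activating enzyme, differed most, by -0.17. Among 22 ubiquitin-conjugating enzyme genes above the floor, 2 were lower and 1 was higher, with a median of 0.07. Ube2z read 12.58 and 11.54, 2.05-fold lower. Ube2l6, an interferon-inducible enzyme that conjugates ISG15, read 7.12 and 6.42, 1.62-fold lower, and Ube2b 8.08 and 8.69, 1.52-fold higher.

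MHC class I antigen processing, which uses peptides made by the proteasome, had 8 genes above the floor on both arrays. Of these 8, 1 was at least 1.5-fold higher and 0 lower, and 7 were above 0, with a median of 0.16. Of all genes above the floor on both arrays, 6.82% were as much higher and 44.0% were above 0, with a median of -0.06. The difference between this list and all genes was not tested. The class I gene RT1-A1 was the 1 below 0, at 7.90 and 7.47, or 1.34-fold lower. Of those above 0, Calr (0.0035) and RT1-A2 (0.05) were close to 0. Tapbp, which loads peptides onto class I, read 10.38 and 11.08, 1.62-fold higher. Tap2, a subunit of the peptide transporter, read 4.35 and 5.23; its control value was below the floor, so only a bound of at least 1.14-fold higher holds, and it is left out of these counts. Of 6 interferon signalling genes above the floor on both arrays, 0 passed 1.5-fold in either direction, with a median of 0.11. Irf9 read 5.54 in the control and was below the floor after siTet2/3 at 4.53, so only a bound of at least 1.41-fold lower holds. Interferon-induced genes were on both sides of the floor: Irf1 read 5.13 and 5.59 and Gbp2 5.42 and 5.69, while Irf7, Isg15, Mx1, Ifit2, Ifit3 and Oas1a were below it on both arrays.

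**Figure D5:**
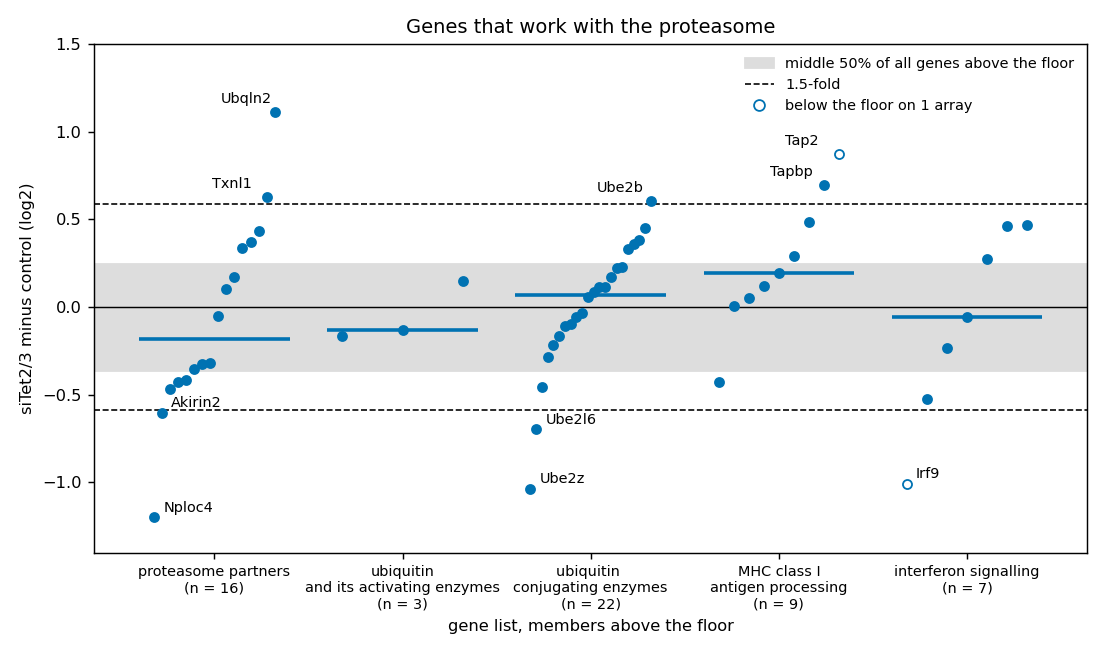
Difference (siTet2/3 minus control, log2) of each gene above the floor in 5 lists of genes that work with the proteasome, with a bar at each list's median, dashed lines at 1.5-fold and a grey band for the middle 50% of all genes above the floor. Open circles are below the floor on 1 array; Nploc4 (-1.20) and Ubqln2 (1.11) lie farthest from 0.

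Promoter windows are shown because TET enzymes act on methylated CpG sites. RefSeq windows of 300 bases on GRCr8, 250 before and 50 after the gene start, were found for 42 of the 46 genes; Psma7, Psmd6, Psmd12 and Psmd14 had no entry. They are given 5′ to 3′ along the gene's strand for the 3 lower genes and for Psma4, the constitutive subunit nearest 0, with every CpG in capitals. Psmb6 lies at chr10:55737638-55737937 on the plus strand, Psmd8 at chr1:93608640-93608939 on the minus strand, Psmd10 at chrX:109453556-109453855 on the minus strand and Psma4 at chr8:64236270-64236569 on the plus strand.
Psmb6: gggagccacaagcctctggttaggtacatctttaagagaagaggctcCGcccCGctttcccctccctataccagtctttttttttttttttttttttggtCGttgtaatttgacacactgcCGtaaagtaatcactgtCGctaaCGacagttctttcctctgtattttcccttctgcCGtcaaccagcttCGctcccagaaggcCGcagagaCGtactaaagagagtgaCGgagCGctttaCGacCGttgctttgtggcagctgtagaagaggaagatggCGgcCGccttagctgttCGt
Psmd8: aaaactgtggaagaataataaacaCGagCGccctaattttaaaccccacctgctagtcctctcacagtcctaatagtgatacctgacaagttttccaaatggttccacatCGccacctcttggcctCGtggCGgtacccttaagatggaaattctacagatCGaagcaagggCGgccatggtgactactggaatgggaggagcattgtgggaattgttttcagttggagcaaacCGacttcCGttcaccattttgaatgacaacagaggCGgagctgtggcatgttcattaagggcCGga
Psmd10: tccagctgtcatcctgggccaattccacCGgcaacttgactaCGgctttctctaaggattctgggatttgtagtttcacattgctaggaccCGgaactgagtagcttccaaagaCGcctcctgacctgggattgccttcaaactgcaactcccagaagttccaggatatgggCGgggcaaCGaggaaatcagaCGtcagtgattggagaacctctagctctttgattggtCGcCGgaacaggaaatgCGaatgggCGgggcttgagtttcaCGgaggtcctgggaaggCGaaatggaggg
Psma4: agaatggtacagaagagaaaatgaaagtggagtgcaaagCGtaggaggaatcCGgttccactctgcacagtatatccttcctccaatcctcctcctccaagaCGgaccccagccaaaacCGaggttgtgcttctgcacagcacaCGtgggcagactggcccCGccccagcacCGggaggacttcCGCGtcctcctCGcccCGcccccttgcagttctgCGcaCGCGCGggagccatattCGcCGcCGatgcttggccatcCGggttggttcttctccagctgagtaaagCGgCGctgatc

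These windows held 17 CpGs for Psmb6, 11 for Psmd8, 13 for Psmd10 and 21 for Psma4. The 42 proteasome windows ranged from 2 (Psmf1) to 40 (Psmg2), with a median of 17.5, where the median was 7.0 over all 27457 genes with a window and 22.0 over the 6839 of them above the floor. All 3 lower genes were thus below the median of the members, Psmb6 only just, and below that of genes above the floor. All 3 were above the median of all promoters. The higher gene Psmc3ip held 22, and the other higher gene, Psma7, had no window. Over the 37 members above the floor with a window, the CpG count and the difference between arrays had a Pearson r of -0.11 and a Spearman rho of -0.12, a description across genes that share both arrays. Methylation itself was not measured on these arrays.

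Motifs were searched on both strands of the windows, and matches of different motifs overlapped in 1 member, Psmb2. The core of the antioxidant response element bound by NRF1 and NRF2, TGACNNNGC, was found in 8 of 42 members and 12.2% of all windows. Psmb6 held 1 match; Psmd8 and Psmd10 held none. The CCAAT box was found in 22 members (52.4%) and 37.7% of all windows, or 54.1% and 38.3% among genes above the floor. The gamma-activated site, TTCNNNGAA, was found in 4 members (9.52%) and 8.68% of all windows, or 8.11% and 6.89% among genes above the floor. The core of the interferon-stimulated response element is GAAA, any pair of bases and GAAA again. It was found in 7 members (16.7%) and 3.77% of all windows, or 10.8% and 2.97% among genes above the floor. It was present in the interferon-inducible genes Psmb8, Psmb10 and Psme2, and also in Psma4, Psmb3, Psmd7 and Psmg4, while the interferon-inducible genes Psmb9 and Psme1 held 0 matches. The window of Psmb10 is shown with its 2 matches in capitals, as the member with the most matches; its signal was at background on both arrays (chr19:50743243-50743542, minus strand, GRCr8).
Psmb10: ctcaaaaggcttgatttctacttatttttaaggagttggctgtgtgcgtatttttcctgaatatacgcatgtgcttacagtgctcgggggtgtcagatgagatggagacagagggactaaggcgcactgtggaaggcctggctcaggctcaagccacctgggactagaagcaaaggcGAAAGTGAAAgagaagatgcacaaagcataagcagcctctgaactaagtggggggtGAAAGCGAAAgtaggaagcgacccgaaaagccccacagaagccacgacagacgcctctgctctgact

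Copies of proteasome genes limit how far a probe set can be assigned. RefSeq lists 52 symbols for pseudogenes or copies of 19 of the 46 members, among them 10 for Psmb3, 3 for Psmb6, 3 for Psma7 and 2 for Psmd8. Psmd10 and Psmc3ip had 0. Probe sequences were not used here, so the part of such copies in the signals of Psmb6, Psma7 and Psmd8 was not tested.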

How the data were processed

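Total RNA from 1 control and 1 siTet2/3 culture was run on 1 whole-transcript expression array each, per the labels' protocols. The values deposited by the authors were taken as log2 signals; the submitters' processing notes name RMA and Transcriptome Analysis Console, for which the sources used here give no version, setting or genome build. The sorted columns differed by at most 0.15 log2 units, so the arrays had been brought to nearly 1 distribution, which hides a difference in total RNA. No member came near the highest deposited value of 19.93, the highest being 17.46.

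Of 23188 gene probes, 15049 had 1 gene symbol in the platform annotation, 0 had several and 8139 had none. The 15037 genes were taken as the mean over probes; all 46 members matched RefSeq (GRCr8) by entrez identifier and symbol. Columns without a known sample numbered 0. The difference of log2 values was taken per gene, and a call needed a higher value above the floor (the 95th percentile, over 1206 olfactory, vomeronasal, taste and trace amine receptor genes without Olr1, of the higher of both values) and a difference of at least 1.5-fold. A gene below the floor on 1 array has a bound, its brighter value over the floor. With 1 array a group there is no p-value; the number of arrays limits the precision.

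The members, lists, floor and limits were chosen with earlier results of these data known. By rule, full values are given for each member past 1.5-fold and for the highest and lowest of each role. The rule adds every immunoproteasome, activator and inhibitor gene, and up to 3 genes each way for other lists. Values of further members, Nfe2l2, Pomp, Adrm1, Sem1, Usp14, RT1-A1, RT1-A2, Calr, Tek, Mitf, Cd68 and the interferon-induced genes were added after they were seen. Alternatives were to omit the floor, to raise it by 1 log2 unit, the negative-control floor, centring, removal of a lowess trend (span 0.3), the brightest probe, values raised to the floor, a 2-fold limit, means for medians and omission of the genes matched by symbol alone. The calls and the trend removal were tested on simulated data. Planted differences there were larger than those of the called members and scatter was smaller than on these arrays. Recovery there is therefore no gauge of the calls here. Python 3.11.15, pandas 2.3.3, statsmodels 0.14.6 and matplotlib 3.10.9 were used.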

Additional observations from a re-analysis of the deposited data

How the results depend on the processing

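Of 114 values recomputed under another setting, 105 kept their call, stayed within 1.5 times the count or moved by at most 0.1 log2 units. Among the 5 genes past 1.5-fold, 0 changed direction. Part of this was fixed in advance. These genes differed by at least 0.59 log2 units, and centring moves each gene by only 0.05, so no sign could change with it. Another floor for inclusion or another fold limit leaves a difference as it is. Each member had 1 probe set, so the brightest probe changed nothing. All 41 passed the floor on both arrays, so raising values to the floor changed nothing either. The floor raised by 1 log2 unit kept all 41. Small medians crossed 0 with centring: that of all members went from -0.05 to 0.01, and that of the base non-ATPases from -0.02 to 0.03. With a 2-fold limit 0 members were lower and 0 higher. The count of higher members was 1 with the negative-control floor, which removed Psmc3ip, and 1 without the genes matched by symbol alone. With means in place of medians the base ATPases came to -0.0021 and the lid to -0.18. With the negative-control floor the assembly chaperones came to -0.20, over 2 genes. Centring and removal of the trend on level left the same 2 higher and 3 lower members, while the counts over all 8103 genes became 845 higher and 899 lower with centring, from 699 and 1070. The immunoproteasome and testis-specific genes gave no median because none passed the floor; without a floor the median of the 3 immunoproteasome genes was 0.21, between background values. No paired analysis was possible because each group had 1 array. With the floor required on both arrays, chosen after seeing the data, the MHC class I genes at least 1.5-fold higher were 1 in place of 2 (without Tap2), and the interferon signalling genes lower were 0 in place of 1 (without Irf9). Signal over background limits the roles with dim genes, and Psma7, at 1.51-fold, and Psmg2, at 1.48-fold, lie so near the limit that their side of it carries little weight.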

Other observations

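Some proteasome genes share a promoter region with a gene transcribed the other way. RefSeq starts on GRCr8 placed such a neighbour with a named probe set within 1000 bases of 7 members, and in 6 of these pairs both genes were above the floor. In 5 of the 6 the proteasome gene and its neighbour differed between the arrays in opposite directions, where the same was so of 48.7% of the 314 divergent pairs of named genes above the floor; several of the differences are small, and no test was made. Psmd10 was lower (6.34 and 5.37), while Atg4a, an autophagy protease gene that starts 223 bases away, read 9.37 on the control and 9.55 on the siTet2/3 array. Psmg2 was also below 0 (6.87 and 6.31), while Cep76, a centriole gene 262 bases away, read 8.92 and 9.64, 1.65-fold higher. Psma2 read 10.68 and 10.98, and the mitochondrial ribosomal gene Mrpl32, 210 bases away, 6.94 and 6.34, 1.51-fold lower. Psmd13 with Sirt3 (0.26 and -0.29) and Psme2 with Rnf31 (0.15 and -0.19) had small differences of opposite sign, and Psmc5 with Ftsj3 (0.06 and 0.18) of the same sign. Psmb9, at background, starts 457 bases from the peptide transporter gene Tap1, which was above the floor at 6.48 and 6.97. The pairs were looked up after the values were seen, and the differences have no replicate.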
